A study of Mus musculus with 6 samples.

Results

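The genes described here are 10 alpha and beta tubulin isotypes, *Tuba1a*, *Tuba1b* and *Tuba1c* on the alpha side and *Tubb2a*, *Tubb2b*, *Tubb3*, *Tubb4a*, *Tubb4b*, *Tubb5* and *Tubb6* on the beta side. They were taken by name from a count table of 53858 genes, in which 23 names belong to tubulin genes or tubulin pseudogenes, and all 10 passed the filter on low counts. Poly(A) RNA was sequenced from pooled motor neurons of the spinal cord, picked from wild-type mice on day 6 after the sciatic nerve was crushed. The double-labelled pools held motor neurons carrying both DiO, given proximal to the crush on day 0, and DiI, given distally on day 2, which marks neurons whose regrowing axons had arrived early at the distal site. The DiO-only pools held injured motor neurons of the same kind of animal with DiO and without DiI. Each group had 3 libraries, and both groups shared the genotype, the injury and the time. A pool held 10 to 15 picked cells per the labels, whose cDNA was amplified for 20 PCR cycles (SMART-Seq HT). Separate animals are not named as the source of the pools, so each p-value reflects spread among these libraries, and that spread may be technical. The labels speak of 3 batches without assigning libraries to them, so no comparison within batches could be made.

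Microtubules are polymers of alpha and beta tubulin heterodimers, and a growing axon needs a supply of both to extend its shaft and to carry cargo to the growth cone. Mammals encode each subunit in several genes, called isotypes, whose protein cores are nearly alike and whose tails differ. *Tuba1a* is the main alpha isotype of developing and regrowing neurons, *Tubb3* is the beta isotype used as a neuronal marker, and *Tubb6* is a minor beta isotype known to be induced in injured peripheral neurons. Tubulin mRNA is itself regulated while it is translated, because the first amino acids of the nascent chain are recognised by the factor encoded by *Ttc5* when free tubulin is in excess.

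The start of the coding sequence shows both the likeness of the isotypes and the stretch on which that feedback acts. The first 24 coding bases of 9 isotypes follow, from GENCODE M21 transcripts on GRCm38, with the first 12 bases, which encode the recognised start of the protein, in capitals.
Tuba1a: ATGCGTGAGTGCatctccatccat
Tuba1b: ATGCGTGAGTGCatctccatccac
Tuba1c: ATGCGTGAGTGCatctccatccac
Tubb2a: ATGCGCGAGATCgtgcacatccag
Tubb2b: ATGCGAGAGATCgtgcacattcag
Tubb3: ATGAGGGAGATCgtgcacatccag
Tubb4a: ATGCGGGAAATCgtgcacctgcaa
Tubb4b: ATGAGGGAGATCgtgcacctgcag
Tubb5: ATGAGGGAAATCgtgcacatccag
The 3 alpha genes share their capitals, and over the 24 bases *Tuba1b* and *Tuba1c* each differ from *Tuba1a* at 1 position. Across whole coding sequences the alpha pairs were 97.6 to 98.4% identical, the 21 beta pairs were 80.7 to 96.5% identical with *Tubb2a* and *Tubb2b* the closest, and alpha and beta were 59.5 to 61.8% identical. This likeness sets how well reads can be assigned. Transcripts were cut into 100-base words, which were searched for in annotated genes at other loci. Genes annotated over the same locus were left out, so words shared only with them counted as unique. This may raise the shares of *Tuba1a* and *Tuba1b*, whose exons overlap another gene. Of these words, 50.0% of those of *Tuba1a*, 30.9% of *Tuba1b* and 46.6% of *Tuba1c* occurred in no gene at another locus. The share was 63.1% for *Tubb2a*, 72.3% for *Tubb2b* and 70.8% for *Tubb4b*, and 100% for *Tubb3*, *Tubb4a*, *Tubb5* and *Tubb6*. How multi-mapping reads were handled is not given in the sources used here, so the split among the alpha genes and between *Tubb2a* and *Tubb2b* is uncertain.

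Total counts ran from 2997714 to 6563403 per library, and the smallest count of any isotype was 97, for *Tubb2b* in double-labelled pool 1 (exact Poisson interval 78.7 to 118, which covers counting error only). All 7 motor neuron markers on the list were detected, and their summed CPM (counts scaled to total counts) ran from 2307 to 4294 in double-labelled pools and from 2575 to 4340 in DiO-only pools. *Prph*, at a log2 fold change of -0.46, made up much of that sum. Single markers went both ways, 4 with a fold change above 0 and 3 below 0 in the double-labelled pools. Of these 1, *Lhx4*, was higher at an unadjusted p under 0.05 in edgeR, against 3.18% of all tested genes. Of 6 markers of dividing cells, *Mki67* had 5 counts over all libraries, while *Ccna2* and *Birc5* had 681 and 355 and were tested. The summed CPM of those 6 ran from 36.3 to 44.0 in double-labelled pools and from 36.8 to 40.7 in DiO-only pools. Oligodendrocyte markers were not near 0. Their summed CPM ran from 1328 to 5612 in double-labelled pools and from 230.0 to 629 in DiO-only pools, and 11 of 11 tested markers had a higher mean in the double-labelled pools, 9 of them at an unadjusted p under 0.05 in edgeR. Of 9 tested astrocyte markers 7 had a higher mean in the double-labelled pools, 6 of them at an unadjusted p under 0.05 in edgeR and 5 without overlap, with a median log2 fold change of 2.53. Over all tested genes 5.86% were higher without overlap. The summed CPM of the astrocyte markers overlapped, from 608 to 898 in double-labelled pools and from 312 to 753 in DiO-only pools, and *S100b* made up much of that sum. All 4 tested microglia markers had a lower mean in the double-labelled pools, with a median log2 fold change of -0.61 and 0 at an unadjusted p under 0.05 in edgeR. Detected genes numbered 15657 to 16467 in double-labelled pools and 17229 to 22118 in DiO-only pools. The part of these differences in the tubulin values was not tested. In pooled cells, fewer cells of a type and less RNA per cell cannot be told apart.

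Every isotype had a lower mean in the double-labelled pools. The 10 isotypes together took 0.745, 0.832 and 1.28% of all counts in double-labelled pools 1, 2 and 3, against 1.87, 1.53 and 2.15% in DiO-only pools 1, 2 and 3. All 3 double-labelled pools lay below all 3 DiO-only pools. The log2 fold changes of double-labelled over DiO-only pools ran from -1.68 to -0.62 with a median of -1.04, where the median over all 12954 tested genes was 0.02. No isotype passed the adjusted threshold of 0.05 in edgeR's quasi-likelihood test, in which 0% of all tested genes did and the smallest adjusted p of any gene was 0.308. At an unadjusted p under 0.05, 8 of 10 isotypes were lower and 0 were higher, where 2.63% of all tested genes were lower and 3.18% were higher. Groups did not overlap, with the double-labelled pools lower, for 8 of 10 isotypes, against 7.07% of all tested genes. Fold changes below 0 were seen for 10 of 10 isotypes, against 48.7% of all tested genes. Among the 1689 tested genes of at least 100 mean CPM, which are closer to the tubulins in level, the median log2 fold change was -0.13 and 62.8% had a fold change below 0. Of these, 6.10% lay lower with an unadjusted p under 0.05, 11.0% were lower without overlap and 2.31% had a fold change at or below the isotypes' median.

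**Figure D1:**
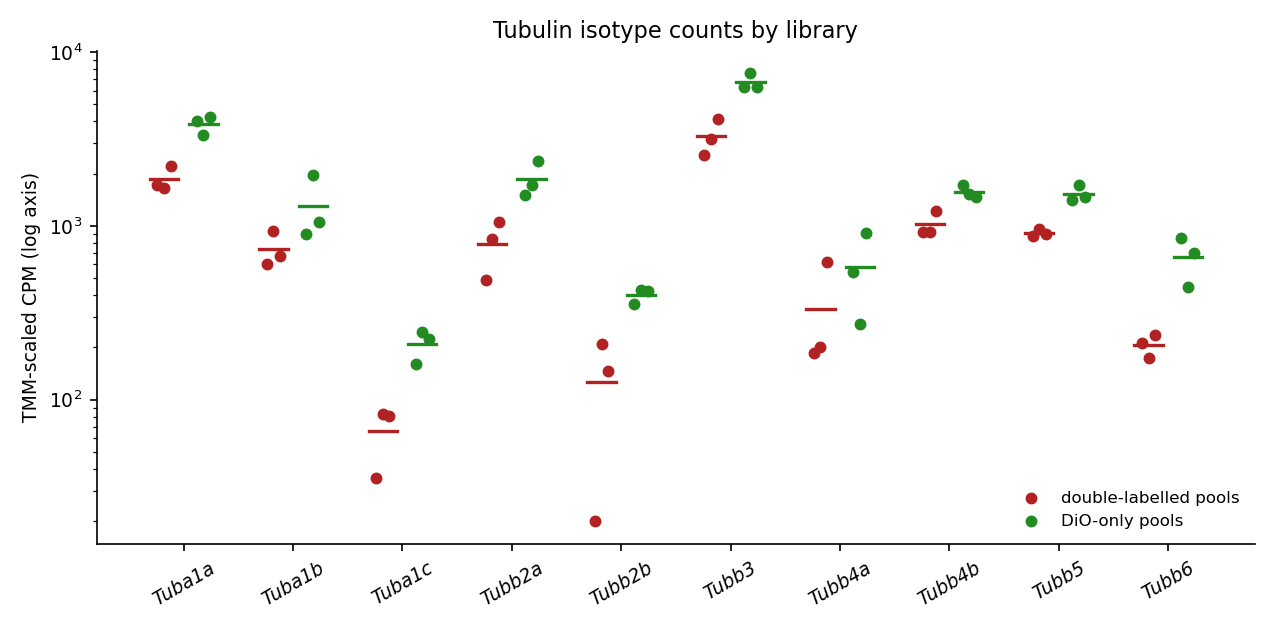
CPM scaled with TMM factors (log axis) for the 10 isotypes in each library, with double-labelled pools in red on the left and DiO-only pools in green on the right of each gene; points are libraries and bars are means of 3. The groups overlap for *Tuba1b* and *Tubb4a*, and *Tubb2b* has its lowest point, 19.9, in double-labelled pool 1.

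Among the alpha genes, which lie in a cluster on chromosome 15, *Tuba1a* was the most abundant (GRCm38, also called mm10; 98949837 to 98953703, minus strand). It had 1720, 1653 and 2218 CPM, from here on scaled with TMM factors, in double-labelled pools 1, 2 and 3, against 4028, 3313 and 4244 CPM in DiO-only pools 1, 2 and 3. The highest double-labelled pool lay below the lowest DiO-only pool. The means were 1864 ± 308 and 3862 ± 487 CPM in double-labelled and DiO-only pools (SD, n = 3 each), a log2 fold change of -1.05 ± 0.32 (SE; edgeR adjusted p = 0.617).

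*Tuba1b*, a broadly expressed alpha isotype (chromosome 15, 98931425 to 98934565, minus strand), did not separate the groups. It had 602, 934 and 668 CPM in double-labelled pools and 893, 1957 and 1052 CPM in DiO-only pools. Double-labelled pool 2 lay above DiO-only pool 1, and pool 2 was the highest library of each group. Its log2 fold change was -0.82 ± 0.37 (SE; edgeR adjusted p = 0.851), and -0.40 without DiO-only pool 2.

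*Tuba1c*, the least abundant alpha isotype here (chromosome 15, 99029891 to 99038110, plus strand), showed a larger difference. It had 35.3, 82.3 and 80.1 CPM in double-labelled pools, against 159, 245 and 223 CPM in DiO-only pools. The groups did not overlap, and double-labelled pool 1 was the lowest library. The log2 fold change was -1.67 ± 0.39 (SE; edgeR adjusted p = 0.444). Because reads may move among the 3 alpha genes and their annotated sequence copies, the 12 genes were also summed into a single row, an alternative added after the data were seen. That sum had a log2 fold change of -1.02 ± 0.32 (SE), with 2.20% of its counts from copies. A further predicted gene on the same strand covers 26.2% of the exon bases of *Tuba1a* and 22.7% of those of *Tuba1b*.

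Of the beta genes, *Tubb3* was the highest (chromosome 8, 123411424 to 123422015, plus strand). It had 2560, 3166 and 4124 CPM in double-labelled pools, against 6270, 7555 and 6308 CPM in DiO-only pools. All double-labelled pools lay below all DiO-only pools. Means were 3284 ± 789 and 6711 ± 731 CPM in double-labelled and DiO-only pools (SD, n = 3 each), and the log2 fold change was -1.03 ± 0.34 (SE; edgeR adjusted p = 0.675). No 100-base word of *Tubb3* is shared with another annotated gene.

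*Tubb6* had the smallest p of the 10 (chromosome 18, 67390717 to 67402749, plus strand) and ranked 12 of all tested genes. It had 212, 174 and 237 CPM in double-labelled pools, against 851, 443 and 696 CPM in DiO-only pools. The lowest DiO-only pool, number 2, still lay above every double-labelled pool. The log2 fold change was -1.68 ± 0.33 (SE; edgeR adjusted p = 0.357). DESeq2 called *Tubb6*, with an adjusted p of 0.00118, and *Tuba1c*, with 0.0185. For *Tubb6* the adjusted p over all alternatives ran from 0.00118 to 1.00.

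*Tubb2a* and *Tubb2b*, beta isotypes of neurons that lie near each other on chromosome 13, differed in how even they were. *Tubb2a* (34074274 to 34078007, minus strand) had 490, 837 and 1045 CPM in double-labelled pools, against 1501, 1707 and 2366 CPM in DiO-only pools, a log2 fold change of -1.23 ± 0.36 (SE; edgeR adjusted p = 0.617). *Tubb2b* (34126748 to 34130466, minus strand) had 19.9, 210 and 147 CPM in double-labelled pools, against 357, 430 and 419 CPM in DiO-only pools. For both genes the groups did not overlap, and for *Tubb2b* double-labelled pool 1 lay far under pools 2 and 3. The log2 fold change of *Tubb2b* was -1.68 ± 0.61 (SE; edgeR adjusted p = 0.720), and -1.18 without that pool. The ratio of *Tubb2a* to *Tubb2b* in counts per kilobase of exon was 35.1, 5.67 and 10.1 in double-labelled pools and 5.98, 5.65 and 8.04 in DiO-only pools (exact two-sided permutation p = 0.3). The ratio was highest in double-labelled pool 1, and double-labelled pool 3 also lay above every DiO-only pool. With both genes and an annotated copy summed into a single row (3 genes), again an alternative added after the data were seen, the log2 fold change was -1.30 ± 0.38 (SE).

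*Tubb5* and *Tubb4b*, beta isotypes found in most cell types, showed smaller differences. *Tubb5* (chromosome 17, 35833921 to 35838306, minus strand) had 868, 956 and 901 CPM in double-labelled pools, against 1417, 1710 and 1465 CPM in DiO-only pools, a log2 fold change of -0.75 ± 0.29 (SE; edgeR adjusted p = 0.742). *Tubb4b* (chromosome 2, 25222160 to 25224702, minus strand) had 927, 919 and 1224 CPM in double-labelled pools, against 1713, 1528 and 1471 CPM in DiO-only pools. Neither gene had overlapping groups, and the libraries within a group lay close together. For *Tubb4b* the log2 fold change was -0.62 ± 0.30 (SE; edgeR adjusted p = 0.872). A gene on the opposite strand, *Fam166a*, covers 5.80% of its exon bases.

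*Tubb4a*, a beta isotype of neurons and myelinating oligodendrocytes, was uneven within both groups (chromosome 17, 57080066 to 57087782, minus strand). It had 186, 200 and 617 CPM in double-labelled pools, against 546, 274 and 913 CPM in DiO-only pools. Pool 3 was the highest of each group, and the groups overlapped. The log2 fold change was -0.79 ± 0.53 (SE; edgeR adjusted p = 0.942), -1.59 without double-labelled pool 3 and -0.31 without DiO-only pool 3. Summed oligodendrocyte markers were 2885, 1328 and 5612 CPM of total counts in double-labelled pools 1, 2 and 3, and 615, 230.0 and 629 CPM in DiO-only pools 1, 2 and 3. For these markers pool 3 was the highest of the double-labelled pools. DiO-only pools 1 and 3 lay close together, and their order depends on the scaling. The part of these markers in the *Tubb4a* level was not tested.

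**Figure D2:**
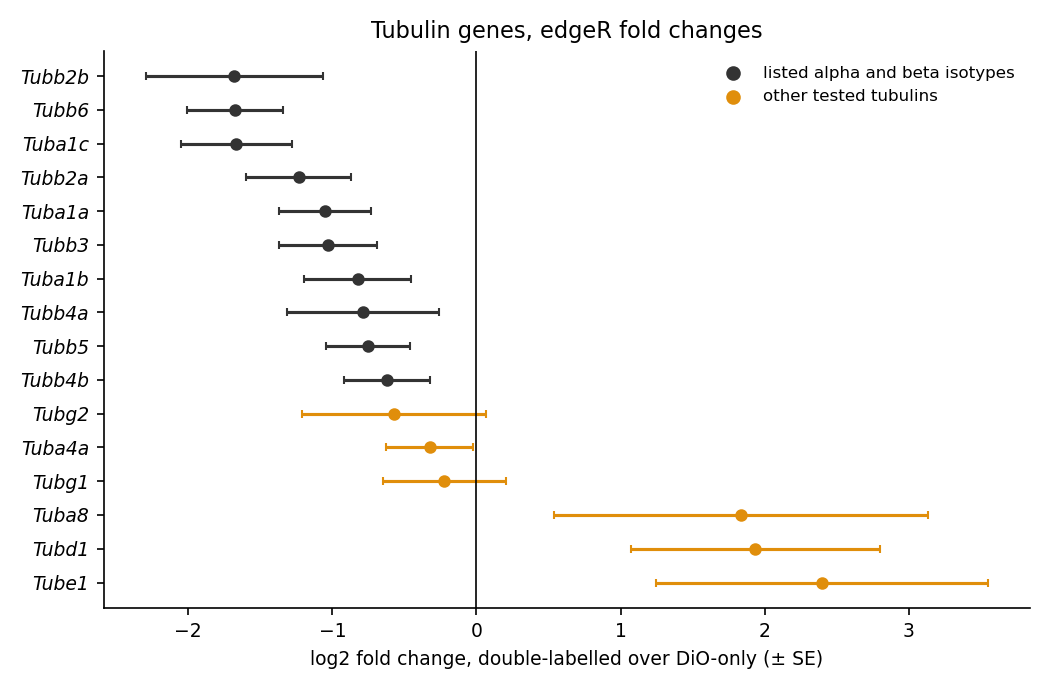
Log2 fold change of double-labelled over DiO-only pools with its SE (horizontal axis) for the 10 isotypes (black) and the other tested tubulin genes (orange), from edgeR over 3 libraries per group. The isotypes lie between -1.68 and -0.62, and *Tubd1* and *Tube1* lie at 1.94 and 2.40.

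Levels can be compared between genes only per length, here as TMM-scaled CPM per kilobase of merged exon length. *Tubb3* averaged 1758 ± 422 in double-labelled pools and 3593 ± 391 in DiO-only pools on this scale (SD, n = 3 each). *Tuba1a* came next, at 1034 ± 171 in double-labelled pools and 2142 ± 270.2 in DiO-only pools. These ranks were the same in both groups, and each step was larger than the spread of the libraries. The step from *Tubb3* to *Tuba1a* also depends on how multi-mapping reads were counted, which is not given. Words found in no gene at another locus were 100% for *Tubb3* and 50.0% for *Tuba1a*, and the levels were not adjusted for this. In double-labelled pools *Tubb2a*, *Tubb4b* and *Tuba1b* followed at 491, 490.2 and 392, neighbours that did not separate, with *Tubb5* below them at 273. In DiO-only pools *Tubb2a* stood at 1154, apart from *Tubb4b* at 752, while *Tubb4b* and *Tuba1b* at 694 did not separate. The place of *Tubb4b* relative to *Tubb2a* depends on the length used. *Tubb4b* has 2088 merged exon bases but 1598 in its longest transcript, and *Tubb2a* has 1610 by both measures. The order and separations given here are for merged exon length. Of *Tubb2a* and *Tubb4b*, the order in double-labelled pools and the separation in DiO-only pools hold for that length only. *Tuba1c* was the lowest isotype in both groups, at 28.8 ± 11.6 in double-labelled pools and 91.5 ± 19.4 in DiO-only pools. In double-labelled pools the steps from *Tubb5* down to *Tuba1c* did not exceed the spread of the libraries.

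Isotype shares overlapped between groups for most genes. Shares were taken within the 3 alpha and within the 7 beta genes, from counts per kilobase. *Tubb3* made up 53.6, 53.1 and 53.2% of beta tubulin in double-labelled pools, against 53.4, 59.1 and 49.2% in DiO-only pools (exact two-sided permutation p = 0.8). The DiO-only pools lay on both sides of the double-labelled ones. *Tuba1a* made up 73.9, 63.2 and 75.9% of alpha tubulin in double-labelled pools, against 80.4, 61.5 and 78.1% in DiO-only pools (exact two-sided permutation p = 0.6). Pool 2 had the lowest share in both groups. The ratio of beta to alpha was 1.98, 2.20 and 2.56 in double-labelled pools and 2.26, 2.29 and 2.28 in DiO-only pools, which overlapped. The size of this ratio also depends on how multi-mapping reads were counted, which is not given.

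Shares of 2 of the 10 isotypes did not overlap between groups. *Tubb4b* took a larger share of beta tubulin, 17.3, 13.8 and 14.1% in double-labelled pools against 13.1, 10.7 and 10.3% in DiO-only pools. The means were 15.1 ± 1.96 and 11.3 ± 1.51% in double-labelled and DiO-only pools (SD, n = 3 each; exact two-sided permutation test, p = 0.1, which is the lowest value possible with 3 libraries per group). *Tuba1c* took a smaller share of alpha tubulin, 1.20, 2.48 and 2.16% in double-labelled pools against 2.51, 3.58 and 3.24% in DiO-only pools (exact two-sided permutation p = 0.1). The highest double-labelled and the lowest DiO-only share of *Tuba1c* nearly touched. The 8 remaining shares overlapped, with *Tubb6* at 3.39, 2.23 and 2.34% in double-labelled pools and 5.55, 2.66 and 4.16% in DiO-only pools (exact two-sided permutation p = 0.2). Over the 10 shares no adjusted p could pass, and without DiO-only pool 2 the count of shares that did not overlap was 5.

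**Figure D3:**
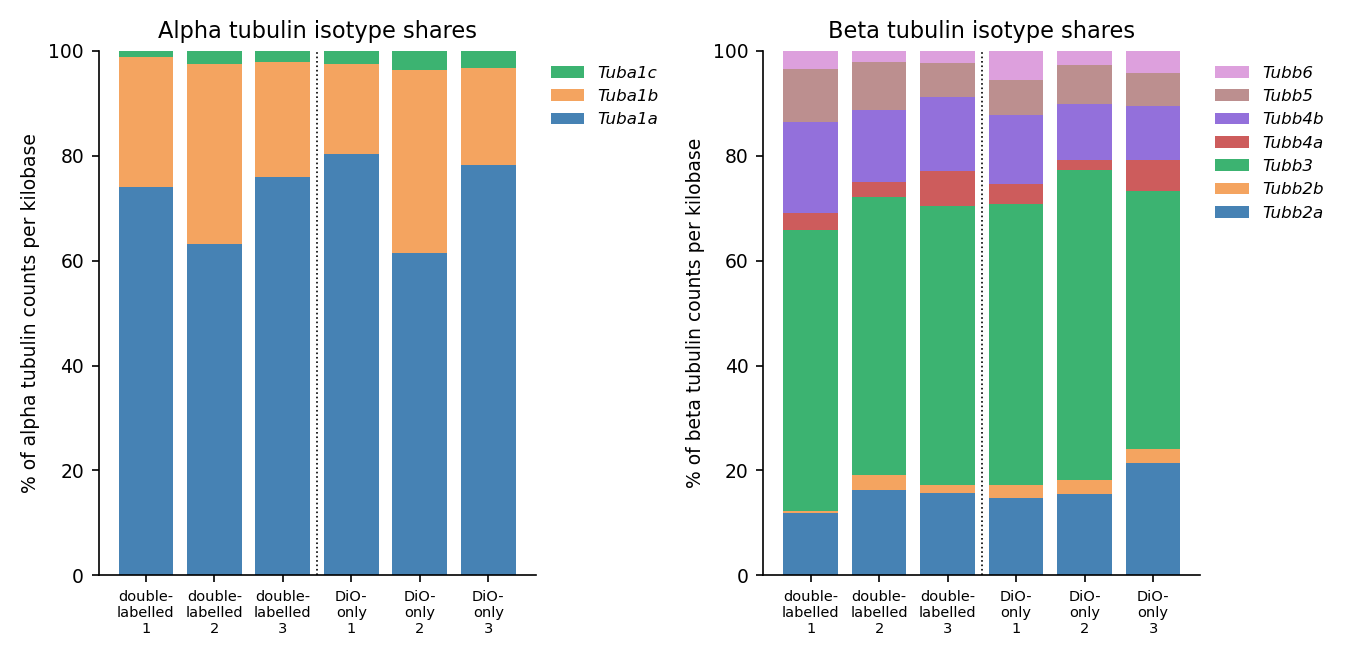
Share of each isotype in percent of alpha (left panel) and beta (right panel) tubulin counts per kilobase, 1 bar per library, double-labelled pools left of the dotted line and DiO-only pools right of it. *Tuba1a* holds 61.5 to 80.4% of alpha and *Tubb3* 49.2 to 59.1% of beta in every library.

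Tubulin genes outside the 10 did not follow a common pattern. Of 10 listed, 6 were tested, with 3 higher and 3 lower means and a median log2 fold change of 0.81. That median rests on genes of few counts. The 3 higher genes, *Tuba8*, *Tubd1* and *Tube1*, had 261, 173 and 123 counts over 6 libraries. The 3 lower genes, *Tuba4a*, *Tubg1* and *Tubg2*, had 16309, 3167 and 753. *Tuba4a*, an alpha isotype of mature neurons and other cells, had 454, 388 and 513 CPM in double-labelled pools and 716, 494 and 485 CPM in DiO-only pools. The groups overlapped, with a log2 fold change of -0.32 ± 0.30 (SE; edgeR adjusted p = 0.970). As a share of all alpha tubulin per kilobase *Tuba4a* held 8.60, 6.73 and 7.86% in double-labelled pools, against 6.50, 4.27 and 4.17% in DiO-only pools, without overlap (exact two-sided permutation p = 0.1). *Tubd1*, of delta tubulin in centrioles, had 12.5, 14.3 and 4.42 CPM in double-labelled pools and 2.04, 3.34 and 2.75 CPM in DiO-only pools, higher in all pools with a log2 fold change of 1.94 ± 0.86 (SE; edgeR adjusted p = 0.846). *Tube1*, of epsilon tubulin, stood higher in all double-labelled pools too, at a log2 fold change of 2.40 ± 1.15 (SE; edgeR adjusted p = 0.871), on only 123 counts over 6 libraries. Groups that did not overlap, with the double-labelled pools higher, were found for 5.86% of all tested genes.

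Lists of tubulin folding genes had medians nearer 0 than the isotypes, a difference that was not tested, and some of their genes lay further from 0 than *Tubb4b*. The CCT chaperonin folds newly made tubulin, and all 8 of its tested subunit genes had lower means in double-labelled pools, with a median log2 fold change of -0.47, 4 of them with groups that did not overlap and 0 at an unadjusted p under 0.05 in edgeR. Over all tested genes 48.7% had a fold change below 0 and 7.07% were lower without overlap, and among those of at least 100 mean CPM the shares were 62.8% and 11.0%. *Tcp1*, a subunit gene, had 226, 180 and 210 CPM in double-labelled pools, against 296, 333 and 269 CPM in DiO-only pools, at a log2 fold change of -0.54 ± 0.28 (SE; edgeR adjusted p = 0.885). *Cct7* and *Cct8* did not overlap either, at -0.49 ± 0.28 and -0.50 ± 0.30, and *Cct5* overlapped at -0.63 ± 0.32 (edgeR adjusted p = 0.904, 0.921 and 0.885). The folding cofactors, which assemble the heterodimer, had 5 of 7 lower means and a median of -0.24. Among them *Tbca*, *Tbcd*, *Tbce* and *Arl2* stood at -0.65, -0.51, 0.37 and -0.36. Prefoldin, which hands tubulin to CCT, had 3 of 6 lower.

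Enzymes that modify or cut microtubules showed no common direction. Of 13 tested writers of tubulin modifications 8 were lower and 5 higher, with a median of -0.08. *Ttl*, the tubulin tyrosine ligase, had 96.4, 102 and 134 CPM in double-labelled pools, against 157, 205 and 167 CPM in DiO-only pools, all lower, at a log2 fold change of -0.67 ± 0.30 (SE; edgeR adjusted p = 0.858). *Ttll11*, a polyglutamylase gene, overlapped at 1.06 ± 0.65 (edgeR adjusted p = 0.929). Erasers had 3 of 8 lower, severing enzymes 5 of 7 and plus-end binding proteins 7 of 12. *Katnal2*, a katanin-like gene, had 0.822, 0 and 0 CPM in double-labelled pools and 2.92, 5.01 and 2.75 CPM in DiO-only pools, a low level at which a fitted fold change depends on the prior count. The feedback factors *Ttc5*, *Cnot11* and *Cnot1*, which act on tubulin mRNA, had 1 of 3 lower and 0 at an unadjusted p under 0.05 in edgeR.

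Nucleation factors, which start new microtubules, were on both sides of 0. Of 18 tested 10 were higher and 8 lower, with a median log2 fold change of 0.54, 2 higher at an unadjusted p under 0.05 in edgeR, against 3.18% of all tested genes, and 0 passing the adjusted threshold. Groups did not overlap, with the double-labelled pools higher, for 4 of 18, against 5.86% of all tested genes. *Haus3*, of the augmin complex, had 23.8, 19.8 and 69.0 CPM in double-labelled pools and 12.4, 16.4 and 16.2 CPM in DiO-only pools, without overlap but with pool 3 far above the others (log2 fold change 1.33 ± 0.53, SE; edgeR adjusted p = 0.751). *Tubgcp3*, of the gamma tubulin ring complex, had 45.8, 36.2 and 36.2 CPM in double-labelled pools against 23.6, 19.0 and 23.5 CPM in DiO-only pools (log2 fold change 0.83 ± 0.38, SE; edgeR adjusted p = 0.858). *Tubgcp6*, of the same complex, stood at 0.72 ± 0.37 without overlap, and the centrosomal *Cdk5rap2* at 1.79 ± 0.78 with overlap (edgeR adjusted p = 0.885 and 0.821).

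**Figure D4:**
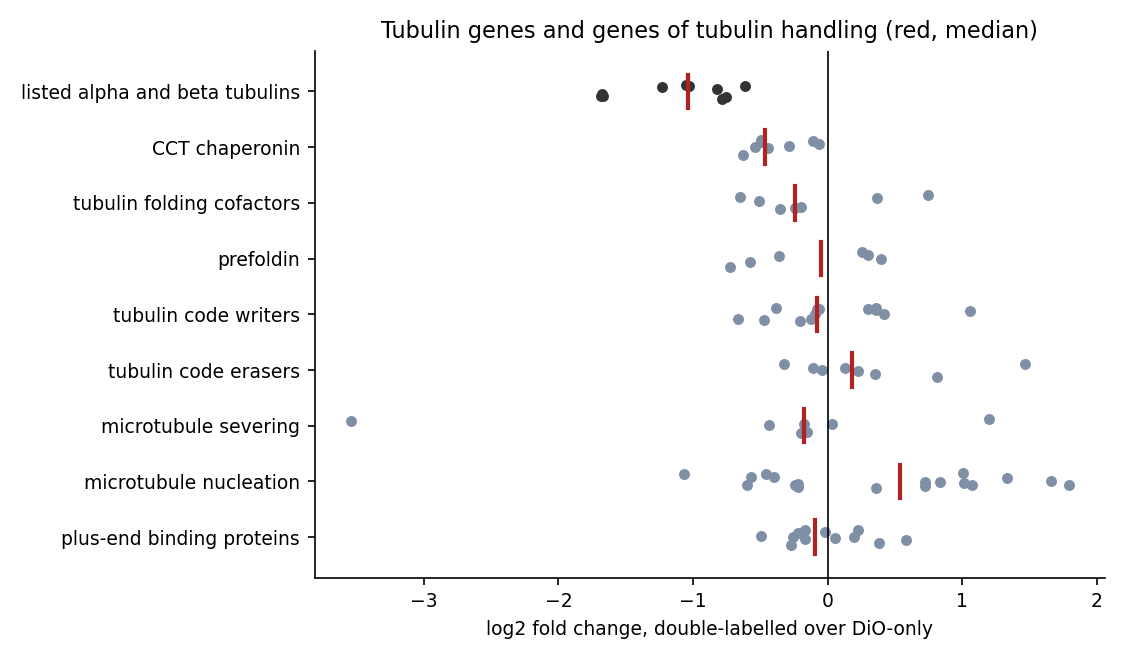
Log2 fold change of double-labelled over DiO-only pools (horizontal axis) for every tested gene of the listed tubulins and of lists of tubulin handling genes (rows); points are genes and red bars are medians. The listed tubulins have a median of -1.04, CCT genes -0.47 and nucleation factors 0.54.

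Most pairs of the 10 isotypes were correlated across libraries. The median Pearson correlation of log2 CPM over the 45 pairs was 0.829 across 6 libraries, a description that also holds the group difference and the shared library of each point. The highest, 0.975, was between *Tuba1a* and *Tubb6*, and the lowest, -0.003, was between *Tuba1b* and *Tubb4a*. Outside the tubulins, 8811 genes of at least 10 mean CPM were ranked by the same measure. Each nearest gene is the highest of 8811 values over 6 libraries, a choice that favours high r, and also holds the group difference. The gene nearest to *Tubb3* was *Klf7* (r = 0.990), to *Tuba1b* the actin gene *Actg1* (r = 0.991) and to *Tuba1c* *Clpx* (r = 0.998). For *Tubb4a* it was the actin-severing cofilin gene *Cfl1* (r = 0.990). For *Tuba1a*, *Tubb2a* and *Tubb2b* they were *Lztr1*, *Nudt9* and *Smarcc1* (r = 0.989, 0.995 and 0.995). For *Tubb4b*, *Tubb5* and *Tubb6* they were *Itpkc*, *Dda1* and *Zfp777* (r = 0.984, 0.996 and 0.994). No link between these genes and the isotypes was tested.

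Promoters are shown because members that were lower together may be read side by side. RefSeq start regions on GRCm38.p6 (250 bases before to 50 after the start) were given for 8 isotypes, and the 4 below carry capitals where a motif matched on either strand: the GC box GGGCGG, the CCAAT box, the TATA box TATAAA, the AP-1 site TGANTCA and the cyclic AMP response element (CRE) TGACGTCA. Matches may overlap each other.
Tuba1a, chr15:98953452-98953751, minus strand: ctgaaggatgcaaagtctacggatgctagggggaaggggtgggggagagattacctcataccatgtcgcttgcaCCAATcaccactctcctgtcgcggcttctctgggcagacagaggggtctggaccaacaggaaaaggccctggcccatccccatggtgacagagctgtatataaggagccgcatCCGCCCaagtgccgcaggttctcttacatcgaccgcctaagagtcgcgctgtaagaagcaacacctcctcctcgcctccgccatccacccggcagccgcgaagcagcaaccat
Tubb3, chr8:123411303-123411602, plus strand: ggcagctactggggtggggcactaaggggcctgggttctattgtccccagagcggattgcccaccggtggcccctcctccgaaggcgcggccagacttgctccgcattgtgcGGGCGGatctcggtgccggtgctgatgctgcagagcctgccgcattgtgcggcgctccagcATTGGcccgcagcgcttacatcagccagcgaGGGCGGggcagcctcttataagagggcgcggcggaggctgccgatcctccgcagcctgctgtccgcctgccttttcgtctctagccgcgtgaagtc
Tubb2a, chr13:34077959-34078258, minus strand: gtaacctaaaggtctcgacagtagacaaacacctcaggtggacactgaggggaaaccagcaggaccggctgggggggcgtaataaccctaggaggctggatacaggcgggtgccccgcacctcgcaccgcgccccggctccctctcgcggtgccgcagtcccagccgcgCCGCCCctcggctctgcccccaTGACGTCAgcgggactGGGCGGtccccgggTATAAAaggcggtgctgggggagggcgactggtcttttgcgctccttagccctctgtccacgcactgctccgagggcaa
Tubb4b, chr2:25224653-25224952, minus strand: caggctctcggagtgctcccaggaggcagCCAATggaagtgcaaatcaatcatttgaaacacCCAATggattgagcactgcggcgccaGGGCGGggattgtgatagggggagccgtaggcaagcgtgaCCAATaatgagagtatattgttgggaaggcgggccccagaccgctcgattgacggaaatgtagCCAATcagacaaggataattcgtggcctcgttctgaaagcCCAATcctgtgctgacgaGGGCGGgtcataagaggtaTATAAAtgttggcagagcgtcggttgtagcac
A GC box was in 6 of the 8 windows and in 35.7% of all 32851 promoters, the CCAAT box in 5 and in 37.4%, and the TATA box in 2, *Tubb2a* and *Tubb4b*, and in 13.6%. AP-1 letters were in 0 of the 8 and in 7.81% of all promoters, and the CRE was in 1, *Tubb2a*, and in 1.79%. *Tubb4b* held 5 CCAAT matches, *Tubb5* held 2, and *Tuba1a*, *Tuba1c* and *Tubb3* held 1 each. A relation of motif counts to the differences between groups was not tested. A match is a description of these letters and not a binding site.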

How the data were processed

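Values are deposited read counts per gene, whole numbers without normalisation, made with HISAT2 and HTSeq on mm10 after FastQC, per the submitters' processing notes. Their versions, the strand setting and multi-mapping are not stated. The deposited series table held the same counts as the 6 single-library files. Libraries were grouped by dye label. In R 4.3.3, filterByExpr kept 12954 of 53858 genes, and edgeR 4.0.16 (TMM factors, robust quasi-likelihood F-test, two-sided, no covariate, Benjamini-Hochberg over all tested genes, threshold 0.05) gave fold changes, and SEs were taken from the F statistic. Shares used merged exon lengths of GENCODE M21 and exact two-sided permutation tests. Correlations used log2 CPM with a prior count of 2. Fits were tested on simulated data. Alternatives were other scalings and filters, DESeq2 1.42.0, limma 3.58.1 voom, a replicate block and leaving out each library. From pathway lists up to 4 tested genes of smallest p were named, and not every such gene is printed. *Fam166a* was named for its overlap. The isotypes and lists were chosen with earlier results of these data known.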

Additional observations from a re-analysis of the deposited data

How the results depend on the processing

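All 146 recomputed fold changes of the isotypes, over other scalings, filters and tools, the replicate block, leaving out each library and summing near-identical copies, stayed below 0. A summed row was counted once for each isotype in it, so some of the 146 values repeat. Genes called over the whole table numbered 0 in the main test, 76 with DESeq2, 79 without a filter and 23 with the replicate block, and 0 under the other scalings, the stricter filter, voom and each left-out library (0 to 0). Isotypes called numbered 0 in the main test, 2 with DESeq2 and 2 with the replicate block, *Tuba1c* and *Tubb6* in both, and 3 without a filter, where *Tubb2b* was added. The cause was not tested. Isotypes lower at an unadjusted p under 0.05 numbered 8 in the main test, 7 to 10 under the other settings with all libraries, and 6 to 8 with a library left out. Shares without overlap numbered 2, and 2 to 5 with a library left out, where groups separate more readily. Replicate numbers are not said to mark pairs, so the main test did not take them as pairs. Deviations of same-numbered pools correlated at 0.074, 0.228 and 0.203, and every pool correlated best with its own number. Whether the numbers mark pairs is not known. Depth limits the low genes most, since 3 counts correspond to 0.457 to 1.00 CPM.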
